A study of Mus musculus with 10 samples.

Results

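WNT and beta-catenin signalling was described through 10 genes, chosen by name: Wnt4, Rspo1, Fzd1, Fzd4, Lrp5, Lrp6, Ctnnb1, Axin2, Tcf7l2 and Sfrp4. All 10 were found among the 35087 gene symbols of the deposited tables, and 7 passed the filter for low counts. Laser microdissection was used to take granulosa cells out of ovaries of wild-type female C57B6/J mice aged 3 weeks, and their polyadenylated RNA was amplified with GEO-seq, which is made for small captured areas, per the labels' protocols. The NAC group (4 libraries) had received N-acetyl-l-cysteine, an antioxidant and cysteine donor, at 150 mg/kg into the peritoneum on 3 consecutive days. The saline group (6 libraries) had received normal saline on the same schedule. Ovaries of both groups were taken on day 4. The labels give batch 1 for every library and tie none to an animal, so the tests see only the spread between captures, some of which may come from 1 animal.

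The 4 NAC libraries held between 116461 and 1667181 estimated reads, and those of the saline group (6) between 1340324 and 2488408. Fewer tested genes had reads in NAC 2 (84.8%) and NAC 3 (85.1%) than in any other library (97.7% to 99.5%). All 10 granulosa markers on the list used here were detected in both groups. Their summed level ran from 6034 to 12482 CPM (reads scaled to a common library total) in NAC libraries and from 11712 to 38934 CPM in saline libraries. Other cell types were present at lower sums. The 10 oocyte markers summed to 141 to 1043 CPM in NAC libraries and to 1.32 to 1476 CPM in saline libraries, and the 10 theca and stroma markers to 63.7 to 1889 CPM in NAC libraries and 114 to 1056 CPM in saline libraries. The 7 endothelium markers summed to 47.8 to 176 CPM in NAC libraries and 9.81 to 45.7 CPM in saline libraries. For them alone the groups did not overlap, and the sums of every other list overlapped. NAC 3 had the lowest NAC endothelium sum, and there 1 read is 7.97 CPM. Within that list the groups were apart for Pecam1 and Kdr. Cdh5, Emcn, Tie1, Vwf and Cldn5 overlapped and had 0 reads in NAC 3. These single endothelium genes were looked at after their values were seen. Fewer cells of a type and less RNA per cell cannot be told apart in such captured samples.

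WNT ligands bind a Frizzled receptor together with LRP5 or LRP6, and R-spondins strengthen the signal by keeping Frizzled at the cell surface. The bound receptor stops a complex built on AXIN and APC from marking beta-catenin for destruction, and beta-catenin then enters the nucleus and joins TCF/LEF factors at target genes such as Axin2. In the fetal mouse ovary WNT4, RSPO1 and beta-catenin take part in female gonad development, and in the postnatal ovary WNT4 and FZD4 have been tied to follicle growth and luteal function.

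With edgeR's quasi-likelihood test, none of the 7 tested genes passed an adjusted p under 0.05. Across all 10945 genes tested the same rule called 8, or 0.0731%. DESeq2 gave an adjusted p to 5 of the 7, leaving out Fzd1 and Lrp5, and called 0 of these 5, against 4.61% of the 9869 genes to which it gave one. At an unadjusted p under 0.05 the count was again 0 of 7, against 16.2% of all genes tested, and in 0 of the 7 were the groups without overlap, against 5.38% of all genes tested. All 7 log2 folds of NAC over saline were positive, with a median of 0.45, beside 51.0% positive and a median of 0.02 over all genes tested. The signs of Fzd4, Ctnnb1 and Tcf7l2 turned under some alternatives. The 95% intervals of these log2 folds were wide: the narrowest was -0.22 to 1.13 for Lrp6 and the widest -2.39 to 3.00 for Fzd1, so a miss of the threshold does not show equal levels.

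**Figure D1:**
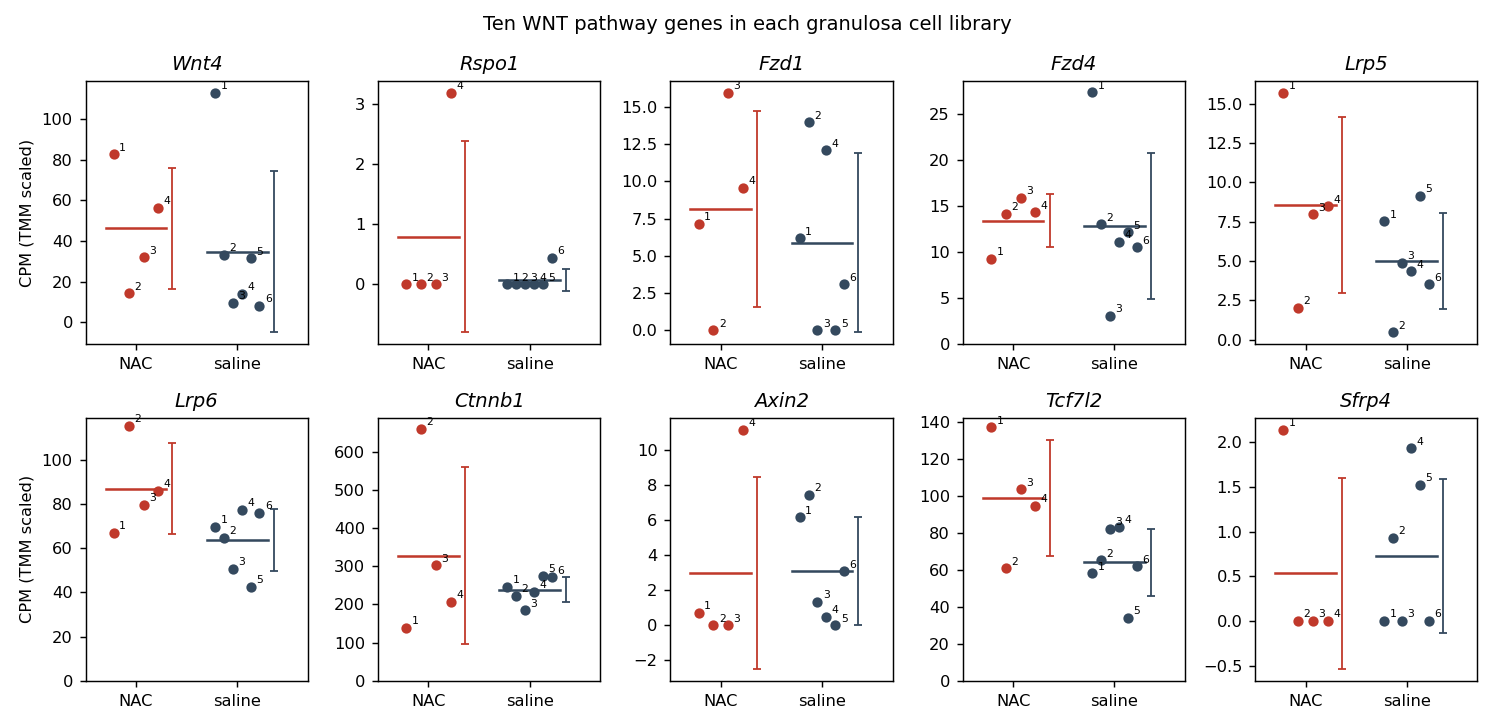
CPM (linear vertical axis, scaled by TMM factors) of the 10 genes in 4 NAC libraries (red, left) and 6 saline libraries (dark, right). Each numbered point is a library, the horizontal line is the group mean and the bar beside it is the SD. The groups overlap in every panel. NAC 2 stands alone for Ctnnb1 at 660 CPM, and saline 1 for Wnt4 at 113 CPM.

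The ligand gene Wnt4 (GRCm38 chromosome 4, 137277489 to 137299726, plus strand) had 82.8, 14.2, 31.9 and 56.3 CPM in NAC 1 to NAC 4. The value of NAC 3 rested on 3.75 estimated reads. In saline libraries its lowest value was 7.91 CPM, its median 22.7 and its highest 113. The groups overlapped, and both the lowest and the highest of the 10 values were in saline libraries. Means were 46.3 ± 29.8 CPM over the 4 NAC libraries and 34.8 ± 39.8 CPM over the 6 saline libraries, with SD as the error. The log2 fold was 0.51 (edgeR adjusted p = 0.732, standard error (SE) 0.67). The spread among saline libraries, 14.3-fold between lowest and highest, was larger than the difference between the groups. Saline 1, the highest, made up part of it, while the next saline library had 33.1 CPM. The coefficient of variation in saline was 114% with saline 1 and 63.6% without it. Without saline 1 the log2 fold was 1.34, and without NAC 1, the highest NAC library, it was 0.06.

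Wnt4 was measured beside markers of several cell types. Saline 1 and saline 2, the saline libraries with most Wnt4, had the lowest saline sums of granulosa markers, 11712 and 14117 CPM. In the other saline libraries that sum was 33919 to 38934 CPM, and Wnt4 was 7.91 to 31.5 CPM. In NAC 1 and NAC 4, the NAC libraries with most Wnt4, the granulosa sum was 9743 and 11125 CPM. NAC 2 did not follow this order, with the lowest granulosa sum of all libraries, 6034 CPM, and the lowest Wnt4 of its group. The list was not uniform. Inha, the most abundant of its genes, was at 7521 and 10160 CPM in saline 1 and saline 2 and at 27720 to 32510 CPM in the other saline libraries. Fshr, Inhba, Hsd17b1 and Gja1 were likewise lower in that pair than in any other saline library. Foxl2, Amh, Nr5a2 and Cyp19a1 overlapped. Kctd14 alone was higher, at 1285 and 1167 CPM in that pair and at 259 to 442 CPM in the others. These single genes were looked at after their values were seen. The part of the granulosa sum in the Wnt4 level was not tested.

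Rspo1 (chromosome 4, 124986430 to 125009099, plus strand), which encodes the R-spondin of the fetal ovary and ovarian surface, had few reads. There were 6.14 estimated reads in NAC 4, which is 3.19 CPM, and 0 in each of the other NAC libraries. In saline it had 1.01 reads in saline 6 and 0 in the other 5 libraries. It did not pass the filter and was not tested. Markers of the ovarian surface epithelium were seen in NAC 4 and in NAC 1, where Rspo1 had 0 reads: Msln at 18.1 and 31.4 CPM, Upk3b at 20.7 and 20.0 CPM and Krt19 at 6.37 and 9.99 CPM. These 3 genes, picked after their values were seen, had 0 reads in NAC 2, NAC 3 and every saline library. Other genes of the list did not keep to that pattern: Krt7 and Muc16 were at 7.97 CPM each in NAC 3, and Krt7, Muc16, Lrrn4 and Aldh1a2 had reads in saline libraries. The whole list of 10 surface markers, in which Krt8 and Krt18 are also made by granulosa cells, summed to 64.8 to 303 CPM in NAC and 147 to 328 CPM in saline, and its part in the Rspo1 reads was not tested.

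A count of 0 had a different reach in each library. With 3 reads as the limit that 0 allows, the limit was 23.9 CPM in NAC 3 and 6.07 CPM in NAC 2, and 1.32 to 2.14 CPM in the other libraries. Absence in NAC 3 is therefore not informative for a gene at the level of Rspo1, Axin2 or Sfrp4. Such limits cover counting error only, since reads were amplified without molecular identifiers.

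The receptor genes were low. Fzd1 (chromosome 5, 4753839 to 4758035, minus strand), which encodes a Frizzled receptor of the canonical pathway, had 7.13, 0, 15.9 and 9.56 CPM in NAC 1 to NAC 4. Its saline values ran from 0 through a median of 4.62 to 14.0 CPM. NAC 3 was highest on 2 reads, and the groups overlapped over the whole saline range (log2 fold 0.31, SE 1.17, edgeR adjusted p = 0.917). Without NAC 3 the log2 fold was 0.02, and without saline 2 it was 0.77. Fzd4 (chromosome 7, 89404355 to 89413134, plus strand), the receptor needed for normal corpora lutea in mice, had 9.27, 14.2, 15.9 and 14.3 CPM in NAC 1 to NAC 4. In saline libraries it ran from 3.12 through a median of 11.6 to 27.4 CPM. The NAC values lay inside the saline range, and the log2 fold was 0.02 (SE 0.63, edgeR adjusted p = 0.990).

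Promoter letters were searched because TCF/LEF factors bind sequences built on CTTTGA or CTTTGT. They are shown for the receptor Fzd1 and the transcription factor Tcf7l2, the genes with a match, and for the target Axin2. The windows of Wnt4, Rspo1, Fzd4 and Ctnnb1, which held no match, are not shown. RefSeq promoter windows on GRCm38.p6 were found for 7 of the 10 genes, and the 250 bases before each annotated start were searched on both strands. At least 1 of these letter strings was found in 2 of 9 windows, from Fzd1 and Tcf7l2, against 27.6% of all 32851 windows. Capitals mark the matches. The Fzd1 window, chr5:4758217-4758466 on the minus strand, held CTTTGA in reverse from base -242 and CTTTGT from base -37 relative to the start. The Axin2 window, chr11:108920099-108920348, and the first Tcf7l2 window, chr19:55741560-55741809, both on the plus strand, held neither. A second Tcf7l2 window, chr19:55895071-55895320 on the plus strand, lies before a start inside the gene and held CTTTGT from base -14. A match is a description of letters and not a bound site.
Fzd1: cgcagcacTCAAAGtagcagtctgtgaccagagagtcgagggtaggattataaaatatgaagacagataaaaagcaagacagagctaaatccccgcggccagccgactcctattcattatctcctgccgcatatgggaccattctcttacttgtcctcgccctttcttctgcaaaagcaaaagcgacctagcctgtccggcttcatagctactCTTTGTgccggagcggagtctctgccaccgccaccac
Axin2: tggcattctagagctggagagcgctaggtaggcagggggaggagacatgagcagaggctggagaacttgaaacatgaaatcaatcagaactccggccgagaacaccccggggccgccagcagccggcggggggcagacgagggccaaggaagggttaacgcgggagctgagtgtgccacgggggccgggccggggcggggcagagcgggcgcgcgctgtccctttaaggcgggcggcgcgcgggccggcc
Tcf7l2 first start: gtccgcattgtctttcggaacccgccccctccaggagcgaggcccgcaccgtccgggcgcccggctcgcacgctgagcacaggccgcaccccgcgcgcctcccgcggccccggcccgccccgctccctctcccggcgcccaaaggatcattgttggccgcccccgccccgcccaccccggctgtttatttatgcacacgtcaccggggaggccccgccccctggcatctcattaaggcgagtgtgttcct
Tcf7l2 inner start: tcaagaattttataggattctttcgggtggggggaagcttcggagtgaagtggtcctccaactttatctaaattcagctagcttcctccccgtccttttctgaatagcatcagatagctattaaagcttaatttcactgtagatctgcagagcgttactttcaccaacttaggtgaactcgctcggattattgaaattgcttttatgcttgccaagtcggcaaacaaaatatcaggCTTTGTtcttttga
The first Tcf7l2 window and the Axin2 window are rich in C and G, at 72.8% and 69.2%, the inner Tcf7l2 window is at 40.8%, and the median of all windows is 52.4%.

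The co-receptor genes differed in level. Lrp6 (chromosome 6, 134446476 to 134566965, minus strand) had 67.1, 115, 79.7 and 86.0 CPM in NAC 1 to NAC 4. Its saline values had a lowest of 42.6, a median of 67.3 and a highest of 77.3 CPM. In CPM, NAC 2, NAC 3 and NAC 4 were above every saline library, and NAC 1 was inside the saline range. NAC 3 rested on 10 reads and was above the highest saline value by less than the 7.97 CPM of 1 read. Means were 87.0 ± 20.5 CPM over the 4 NAC libraries and 63.6 ± 14.0 CPM over the 6 saline libraries, with SD as the error. The log2 fold was 0.45 (edgeR adjusted p = 0.456, SE 0.29), and 0.28 without NAC 2, the highest library in CPM. Deposited TPM (scaled by length) gave another order, at 15.4, 11.2, 9.98 and 17.2 in NAC 1 to NAC 4. They ran from 5.38 to 13.9 in saline libraries, so NAC 1 and NAC 4 were above that range and NAC 2 and NAC 3 inside it.

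Lrp5 (chromosome 19, 3584828 to 3686564, minus strand), the paralogue of Lrp6, had 15.7, 2.02, 7.97 and 8.49 CPM in NAC 1 to NAC 4. In saline it ran from 0.466 through a median of 4.63 to 9.13 CPM. NAC 1 lay above all saline libraries and the other NAC libraries within their range (log2 fold 0.85, SE 0.81, edgeR adjusted p = 0.623). Without NAC 1 the log2 fold was 0.30. NAC 2 and NAC 3 rested on 1 read each. Lrp6 had more estimated reads than Lrp5 in all 10 libraries, with 323 against 40.0 reads over the NAC group and 773 against 58.0 over the saline group. The deposited TPM, which divide by length, placed Lrp6 above Lrp5 in all 10 libraries as well, by 2.03-fold or more.

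Ctnnb1 (chromosome 9, 120929216 to 120960507, plus strand), which encodes beta-catenin, also a part of cell junctions, was the most abundant of the 10 genes. It had 138, 660, 303 and 208 CPM in NAC 1 to NAC 4, and 185, 240 and 274 CPM as the lowest, median and highest saline values. In CPM the NAC libraries lay on both sides of the saline range, with NAC 2 and NAC 3 above it and NAC 1 below. The coefficient of variation was 70.9% in NAC and 13.9% in saline. Means were 327 ± 232 CPM over the 4 NAC libraries and 239 ± 33.3 CPM over the 6 saline libraries, with SD as the error. The log2 fold was 0.45 (edgeR adjusted p = 0.543, SE 0.35). On reads the sign rested on NAC 2: without that library the log2 fold was -0.21. Without NAC 2 and NAC 3 it was -0.46 (edgeR adjusted p = 0.360). The deposited TPM of Ctnnb1 were 130, 543, 278 and 218 in NAC 1 to NAC 4 and 110 to 220 in saline libraries. On that measure NAC 1 and NAC 4 were inside the saline range, and NAC 2 and NAC 3 were above it.

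NAC 2 also differed in its markers. It had the lowest sum of granulosa markers, 6034 CPM, and the highest sums of theca and stroma markers, 1889 CPM, and of smooth muscle and pericyte markers, 690 CPM. The sums of those 7 smooth muscle and pericyte markers were 7.97 to 227 CPM in the other NAC libraries and 13.4 to 343 CPM in saline libraries. Their part in the Ctnnb1 level was not tested. Ctnnb1 overlaps Ulk4 and an antisense transcript on the other strand, and the use of strand in counting is not given in the sources used here, so reads of overlapping parts cannot be told apart.

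Axin2 (chromosome 11, 108920349 to 108950783, plus strand), a brake on the pathway and one of its most used target genes, did not pass the filter. It had 11.1 CPM in NAC 4, 0.713 CPM in NAC 1 and 0 in NAC 2 and NAC 3. Its saline values ran from 0 through a median of 2.21 to 7.45 CPM, and 5 of the 6 saline libraries had reads. NAC 4 held 21 of the 22 reads of the NAC group, against 36 reads over the saline group. Sfrp4 (chromosome 13, 19623104 to 19632994, plus strand), a secreted protein that binds WNT ligands and is known in periovulatory granulosa cells and corpora lutea, had 3 reads over the NAC group and 9 over the saline group. Its highest values were 2.14 CPM in NAC 1 and 1.93 CPM in saline 4. With no filter for low counts, edgeR gave adjusted p-values of 0.928 for Axin2, 0.994 for Sfrp4 and 0.332 for Rspo1.

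Tcf7l2 (chromosome 19, 55741820 to 55933654, plus strand), which encodes the TCF/LEF factor TCF4, had the smallest p of the 7 tested genes. It had 137, 60.7, 104 and 94.5 CPM in NAC 1 to NAC 4, and 34.0, 63.6 and 83.1 CPM as the lowest, median and highest saline values. NAC 2 was inside the saline range and the other NAC libraries were above it. Means were 98.9 ± 31.3 CPM over the 4 NAC libraries and 64.1 ± 18.0 CPM over the 6 saline libraries, with SD as the error. The log2 fold was 0.63 (edgeR adjusted p = 0.341, SE 0.32). On the deposited TPM the log2 fold was -0.02 with limma (adjusted p = 0.989 on log2(TPM + 1)). The effective length that its reads and TPM imply was 2954 and 3072 bases in NAC 2 and NAC 3, 1199 and 1305 bases in NAC 1 and NAC 4, and 1042 to 1795 bases in saline libraries, while for Tcf7 it was 2165 to 2260 bases in NAC libraries and 2157 to 2248 bases in saline libraries. Without NAC 1, the highest library, the log2 fold on reads was 0.40.

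Tcf7, which encodes the related factor TCF1, had a negative log2 fold. It had 48.5, 38.5, 31.9 and 81.2 CPM in NAC 1 to NAC 4, and 72.0, 94.4 and 129 CPM as the lowest, median and highest saline values. NAC 4 was inside the saline range and the other NAC libraries were below it (log2 fold -0.85, SE 0.31, edgeR adjusted p = 0.209). Library size cancels in the ratio of Tcf7l2 to Tcf7 reads within a library, but the GC trend described below does not. Tested genes with GC content like that of Tcf7l2 had a median log2 fold of 0.15, and those like Tcf7 of -0.18. The part of GC content in the ratio was not tested. This pair was chosen after its values were seen, so the ratio is given without a test. It was 2.82, 1.58, 3.21 and 1.16 in NAC 1 to NAC 4. In saline its lowest value was 0.452, its median 0.691 and its highest 0.887. Reads of Tcf7l2 outnumbered those of Tcf7 in all 4 NAC libraries, reads of Tcf7 outnumbered those of Tcf7l2 in all 6 saline libraries, and NAC 3 held 12.8 and 4 reads of the pair. On the deposited TPM the ratio was 1.17 to 5.31 in NAC and 0.550 to 1.82 in saline, and the groups overlapped.

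**Figure D2:**
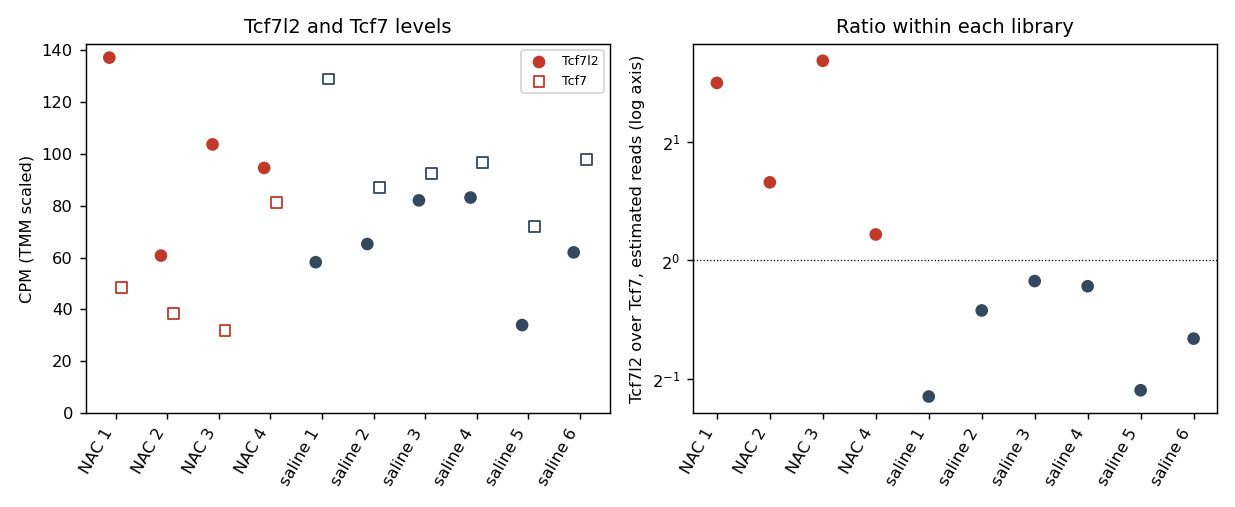
Left, CPM (linear axis) of Tcf7l2 (filled circles) and Tcf7 (open squares) in each library. Right, the ratio of their estimated reads on a log2 axis, with a dotted line at equal reads. The 4 NAC libraries (red) lie at 1.16 to 3.21 and the 6 saline libraries (dark) at 0.452 to 0.887.

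Levels were set against each other on the deposited TPM, which are per length. In saline libraries Ctnnb1 averaged 167 ± 44.3 TPM, Tcf7l2 55.0 ± 19.9, Wnt4 9.70 ± 12.5 and Lrp6 9.39 ± 3.00 (SD, n = 6). Below them came Axin2 at 2.59 ± 2.87 TPM, Fzd4 at 2.10 ± 1.58, Fzd1 at 1.56 ± 1.60 and Lrp5 at 1.51 ± 0.929. Sfrp4 at 0.305 ± 0.467 TPM and Rspo1 at 0.0444 ± 0.109 were lowest. Ctnnb1 was above Tcf7l2 without overlap, at 110 TPM or more against 73.8 or less. The effective length implied for Ctnnb1 was 1244 to 1963 bases in saline libraries, and its longest transcript has 3623 bases. In NAC libraries it was shorter, 1021 to 1192 bases, so TPM and CPM of Ctnnb1 differ in how they set the groups apart. Wnt4 and Lrp6 did not differ beyond their spread, nor did Axin2, Fzd4, Fzd1 and Lrp5 among themselves. With CPM per kilobase of the longest annotated transcript, the order of the first 4 was again Ctnnb1, Tcf7l2, Wnt4 and Lrp6, at 65.9, 17.2, 8.30 and 6.78 in saline, while Axin2 ranked below Fzd4 and Fzd1.

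The 10 genes differed as much in how evenly they were measured. Across saline libraries the coefficient of variation of CPM was 13.9% for Ctnnb1, 22.1% for Lrp6 and 28.2% for Tcf7l2. It was 61.3% for Lrp5, 61.5% for Fzd4, 102% for Fzd1 and 114% for Wnt4. Fzd1 and Lrp5 had 71 and 58.0 reads over the saline group, so counting error enters their spread. Wnt4 had 365 reads over the saline group, of which saline 1 held 165, and without saline 1 its coefficient of variation was 63.6%.

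GC content moved with the comparison across all genes. With tested genes in 4 equal groups by GC content of the longest transcript, the median log2 fold was 0.44 in the lowest group and -0.41 in the highest. Wnt4, Fzd1 and Lrp5 fall in the highest group and had positive log2 folds. Lrp6, Fzd4 and Tcf7l2 fall in the second lowest, with a median of 0.15, and Ctnnb1 in the second highest, with a median of -0.18. With offsets for each library's GC trend the log2 fold was 0.76 for Wnt4, 1.10 for Lrp5, 0.49 for Tcf7l2 and 0.16 for Lrp6. That of Fzd4 turned negative, and those of Ctnnb1 and Fzd1 stayed positive. None was called by edgeR.

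**Figure D3:**
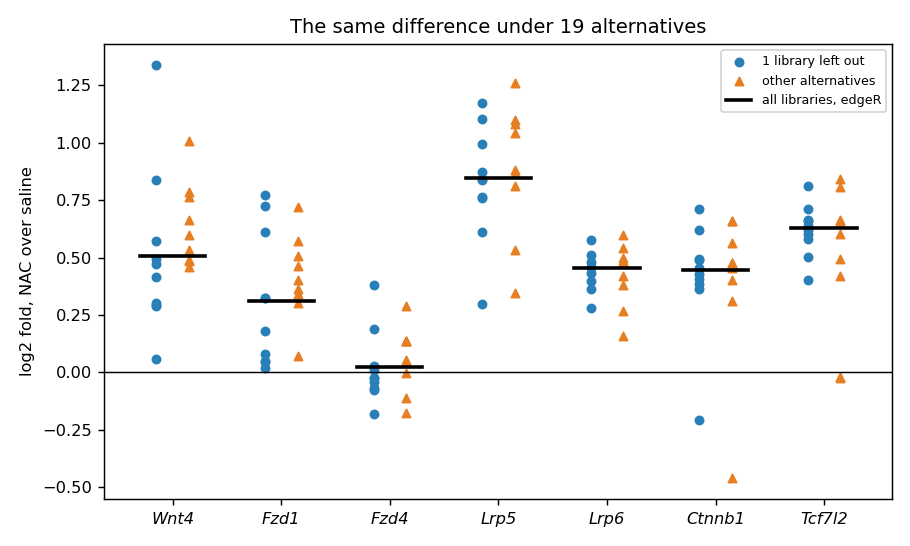
Log2 fold of NAC over saline (vertical axis) for the 7 tested genes under 19 alternatives. The black line is edgeR with all libraries, circles are fits with 1 library left out and triangles the other alternatives. Fzd4 scatters around 0, Ctnnb1 turns negative without NAC 2 and Tcf7l2 does so on TPM.

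The other genes of the pathway were 95 in the tables, from ligands to targets, and 48 passed the filter. None was called over all genes tested by edgeR, beside the 0.0731% of all genes, and DESeq2 called 0 of the 44 to which it gave an adjusted p, beside 4.61% of all genes with one. At an unadjusted edgeR p under 0.05 there were 4 higher in NAC (8.33% of the 48, beside 7.79% of all genes) and 1 lower (2.08%, beside 8.37%). The log2 folds were positive in 24 and negative in 24, with a median of 0.01.

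Around the receptors, Znrf3, a ubiquitin ligase that removes Frizzled from the membrane and is itself a beta-catenin target, had 45.7, 52.6, 55.8 and 60.5 CPM in NAC 1 to NAC 4. Its saline values had a lowest of 20.8, a median of 29.0 and a highest of 36.2 CPM. The groups did not overlap in CPM, with NAC above, which held for 1.96% of all genes tested and for 2 of the 48. The other was the casein kinase gene Csnk1g1, named after its values were seen, with 6 reads in NAC 3. On the deposited TPM the groups overlapped for both genes. Znrf3 was at 8.72 to 12.4 TPM in NAC and 3.28 to 9.14 in saline, and Csnk1g1 at 11.1 to 42.2 in NAC and 1.85 to 25.5 in saline. The Znrf3 value of NAC 3 rested on 7 reads. The log2 fold of Znrf3 was 0.87 (SE 0.33, edgeR adjusted p = 0.217). Rnf43, its relative, did not pass the filter, with 16 reads over the NAC group and 21 over the saline group.

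Lgr4, a receptor for R-spondins, had 10.7, 32.4, 7.97 and 54.7 CPM in NAC 1 to NAC 4, against 6.16, 10.1 and 16.9 CPM as the lowest, median and highest saline values. NAC 2 and NAC 4 were above the saline range and the others inside it (log2 fold 1.43, SE 0.56, edgeR adjusted p = 0.231). Without NAC 4 the log2 fold was 0.76. Fzd3, a Frizzled best known in planar polarity and axon guidance, had 38.5, 119, 31.9 and 54.2 CPM in NAC 1 to NAC 4 and 25.0 to 37.7 CPM in saline libraries (log2 fold 0.96, SE 0.38, edgeR adjusted p = 0.232), and without NAC 2 the log2 fold was 0.44. Fzd2 had a log2 fold of -1.22 (SE 0.82). Wls, which carries WNT ligands to the cell surface, had a log2 fold of 0.49 (SE 0.38).

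In the cytoplasm, Gsk3b, a kinase that marks beta-catenin for destruction, averaged 123 ± 27.7 CPM over the 4 NAC libraries and 84.2 ± 18.9 CPM over the 6 saline libraries, with SD as the error. The log2 fold was 0.56 (edgeR adjusted p = 0.318, SE 0.27). Axin1, the constant AXIN of the complex, had a log2 fold of -0.65 (SE 0.46), Fbxw11, a ubiquitin ligase subunit that recognises marked beta-catenin, of -0.63 (SE 0.38) and Apc of 0.20 (SE 0.36). The sign of Apc turned without NAC 1. In the 17 tested genes of this group, 8 log2 folds were positive and 9 negative.

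In the nucleus, Tle2, a Groucho co-repressor gene, had 52.8, 0, 7.97 and 33.4 CPM in NAC 1 to NAC 4 and 1.45 to 19.1 CPM in saline libraries. NAC 1 and NAC 4 were above the saline range, and the 0 in NAC 2 allows up to 6.07 CPM, which reaches into it (log2 fold 2.03, SE 0.87, edgeR adjusted p = 0.260). Without NAC 1 the log2 fold was 1.31. Ctnnbip1, which encodes an inhibitor of the binding of beta-catenin to TCF factors, had a log2 fold of -0.60 (SE 0.35). Lef1 did not pass the filter: 12 reads in NAC 1, 36 in saline 2 and 12 in saline 4 were its only reads. Among the targets, Nkd1, a feedback inhibitor gene, had a log2 fold of 0.70 (SE 0.60) and Fst, which encodes the activin antagonist follistatin, of -0.34 (SE 0.29). Fst stood at 494 ± 176 CPM over the 4 NAC libraries and 616 ± 170 CPM over the 6 saline libraries (SD). Ccnd1 had 19.3 reads over the NAC group and 26.5 over the saline group and was not tested.

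**Figure D4:**
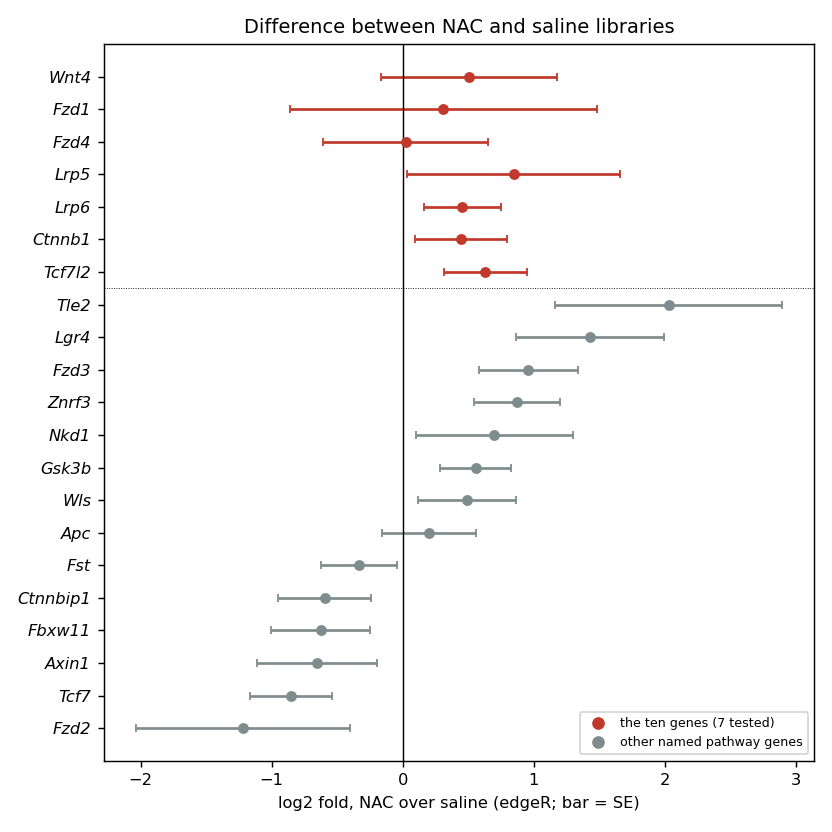
Log2 fold of NAC over saline by edgeR (horizontal axis) with its SE (bars) for the 7 tested genes (red, above the dotted line) and the other named genes of the pathway (grey). None was called. Tle2 at 2.03 and Lgr4 at 1.43 are the highest and Fzd2 at -1.22 the lowest.

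The genes most like Wnt4 and Ctnnb1 were sought by the root-mean-square difference of centred log2 CPM over the 10 libraries, among 9535 genes of at least 10 CPM. Nearest to Wnt4 were S100a16 at 0.512, Tyro3 at 0.521 and Ythdc2 at 0.592, where the variation of Wnt4 itself was 1.18 on that scale. Nearest to Ctnnb1 were Zfp386 at 0.155, Gm15500 at 0.167 and Azin1 at 0.175, where the variation of Ctnnb1 itself was 0.554. These distances include the shallow library NAC 3 and the library NAC 2, in which Ctnnb1 was highest.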

How the data were processed

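Polyadenylated RNA of 10 captured samples was measured. The authors deposited 1 gene table per library, made on GRCm38 with Salmon (per the submitters' processing notes), with versions not given in the sources used here. The deposited estimated counts are the reads Salmon assigned to each gene, per the file headers. In rows that are single transcripts the deposited TPM were proportional to reads per deposited effective length, within 1% in 100% of rows. Some gene rows did not follow their deposited length. In NAC 1 the deposited length was 534 bases for Ctnnb1 and 94.4 for Tcf7l2, while reads and TPM imply effective lengths of 1192 and 1199 bases. The effective length a gene's TPM imply was taken as its reads per TPM, scaled by the rows that are single transcripts. The 1548 rows without a gene symbol (0.496% to 0.638% of reads) were left out.

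Estimated counts were rounded and tested with edgeR 4.0.16 in R 4.3.3 (quasi-likelihood, robust, TMM factors, default filter), adjusted by the Benjamini-Hochberg method over 10945 genes and called under 0.05. CPM use the TMM factors. SE come from the F statistic. The test was checked on simulated counts, where it missed nearly all changes of a log2 fold of 1. Positions and GC content came from GENCODE vM21, promoters from RefSeq.

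Members and lists were chosen with earlier results of these data known. Named were all 10 members, the 5 other pathway genes of smallest unadjusted p on each side, and 11 fixed counterparts of the members. Any gene outside the rule is marked as chosen after seeing values. Alternatives were DESeq2 1.42.0, RLE factors, no factors (library size alone), limma 3.58.1 on log2(TPM + 1) and log2(TPM + 0.1), no filter, GC offsets, the replicate number as a block, each library left out, and NAC 2 and NAC 3 left out.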

Additional observations from a re-analysis of the deposited data

Results flagged for a closer look

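In 9 of 54 groups of libraries 1 value stood far from the rest by Dixon's criterion, which chance meets in about 1 of 20 groups of normally distributed values. CPM near 0 are not distributed so, and all 9 values were the highest of their group, so that rate is no measure of chance here. It has no meaning for 4 of the 9, where every other library of the group had 0 reads and 1 library with any read meets the criterion. Wnt4 was at 113 CPM in saline 1, with 7.91 to 33.1 in the other saline libraries. Axin2 was at 11.1 CPM in NAC 4, with 0 to 0.713 in the other NAC libraries. Rspo1 was at 3.19 CPM in NAC 4 and at 0.44 CPM in saline 6, and Sfrp4 at 2.14 CPM in NAC 1, each with 0 in the other libraries of its group. Tle2 was at 19.1 CPM in saline 2, with 1.45 to 7.58 in the other saline libraries. Lef1 was at 8.56 CPM in NAC 1, with 0 in the other NAC libraries, and at 16.8 CPM in saline 2, with 0 to 5.80 in the other saline libraries. Apc was at 70.6 CPM in NAC 1, with 36.4 to 39.8 in the other NAC libraries.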

How the results depend on the processing

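The counts of 0 called among the 7 tested members and of 0 among the 48 other tested pathway genes were also 0 under all 19 alternatives. Over all genes the count of 8 was 455 with DESeq2, 226 without the low-count filter, 23 with GC offsets, 2 without NAC 2 and NAC 3 and 1 with the replicate block. It ran from 1 to 56 with 1 library left out: 56 without NAC 1, 38 without NAC 2, 22 without saline 1, 2 without saline 4, 8 without saline 2, and 1 without NAC 3, NAC 4, saline 3, saline 5 or saline 6. Of 399 log2 folds of named genes under the alternatives, 384 kept their direction. Fzd4 turned to -0.0044 without the filter, -0.11 without NAC 2 and NAC 3 and -0.18 with GC offsets (-0.18 to 0.38 with 1 library left out). Ctnnb1 turned to -0.46 without NAC 2 and NAC 3 (-0.21 to 0.71 with 1 library left out). Tcf7l2 turned to -0.019 on log2(TPM + 1) and -0.025 on log2(TPM + 0.1). Apc turned to -0.041 with GC offsets (-0.11 to 0.35 with 1 library left out). Leaving out 1 library also moved log2 folds of named genes by over 1.5 times. Axin1 was -0.28 without NAC 2 and -1.16 without NAC 4, and Fzd2 was -2.20 without NAC 4. Wls was 0.26 at its lowest with 1 library left out. Fbxw11 was -0.42 without NAC 1 and -0.999 without NAC 4. Fst was -0.21 without NAC 2, -0.63 without NAC 3 and -0.22 without saline 3. Nkd1 was 0.44 without NAC 3. The causes were not tested. Replicate numbers did not pair the libraries: same-numbered deviations correlated at -0.01 to 0.20, and 1 of 4 NAC libraries correlated best with the saline library of its number. With the replicate block the log2 fold of Tcf7l2 was 0.42. Over all genes the median log2 fold was 0.18 with library size alone and -0.14 with log2(TPM + 0.1). The depth of NAC 3 limits all genes under 23.9 CPM.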

Other observations

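Rspo2, an R-spondin gene known in mouse oocytes, was chosen after its values were seen and did not pass the filter. It had 0, 64.8, 0 and 10.6 CPM in NAC 1 to NAC 4, where the 10 oocyte markers summed to 141, 215, 693 and 1043 CPM. Among saline libraries it had 29.0 CPM in saline 4, 2.33 in saline 2, 1.78 in saline 3 and 0 in the other 3. The oocyte sum was 1476 CPM in saline 4, 549 in saline 2, 19.6 in saline 3 and 1.32 to 20.5 in the other 3. In saline the libraries with most Rspo2 were thus those with most oocyte markers, and in NAC the highest Rspo2 was in NAC 2, which had the second lowest oocyte sum of its group.

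Besides Wnt4, the WNT ligand genes that passed the filter were Wnt5b and Wnt6, also chosen after their values were seen. Wnt5b averaged 12.3 CPM in NAC and 22.8 in saline, and Wnt6 11.0 in NAC and 8.35 in saline. Neither was called by edgeR, with adjusted p-values of 0.628 and 0.808.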
